A study of Mus musculus with 6 samples.

Results

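The natriuretic peptide receptors and the angiotensin system were described in interscapular brown fat, the depot near the shoulder blades that burns fuel for heat, through 8 genes. The genes were chosen by symbol from the 29072 genes of a deposited expression table: the receptors Npr1, Npr2 and Npr3, the kinase Prkg1, and Agt, Ace, Agtr1a and Agtr2. Each gene was represented by 1 transcript row, selected on its kind (RefSeq rows first) and then on the highest mean over all 6 libraries, which does not depend on genotype. Of the 8 genes, 6 were tested because their mean reached 1 RPKM in the knockout or the wildtype group, and Prkg1 and Agtr2 lay under that limit. RPKM is a read number scaled to the length of the transcript and to the depth of the library.

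The study sequenced total RNA of this depot from 3 mouse samples labelled UCP1(-/-), in which the gene of uncoupling protein 1 is disrupted, and from 3 wildtype samples. Both groups were of the strain C57BL/6J, and no other allele or treatment is named in the labels used. Age, sex, housing temperature and time of day are not given there either. Nothing in the labels states that replicates came from different animals, and the p-values below therefore measure only the spread among these 6 samples, part or all of which may be technical.

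Natriuretic peptides are hormones of the heart and vessel wall. Npr1 and Npr2 encode the receptors that make cyclic GMP when a peptide binds, and the protein kinase encoded by Prkg1 carries that signal on. Npr3 encodes a receptor with no cyclase domain, which takes up and clears the peptides, and in fat the balance between Npr3 and the cyclase receptors is known to set how strongly a cell responds with lipolysis and heat production. Angiotensin is cut from angiotensinogen, the product of Agt, first by renin and then by the converting enzyme encoded by Ace, and acts through the type 1 and type 2 receptors encoded in mice by Agtr1a, Agtr1b and Agtr2. Fat is a known source of angiotensinogen outside the liver.

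The depth of the 6 libraries was estimated from the spacing of low values, at 15700000 to 18000000 reads. The estimate was searched within a preset range, which limits how far the libraries could differ. Ucp1, the targeted gene, had 375, 389 and 372 RPKM in the knockout libraries against 3096, 1714 and 3151 RPKM in the wildtype libraries. It was 7.01-fold lower, and the libraries matched their labels. Of 11562 genes tested, 887 (7.67%) passed a limma adjusted p of 0.05, with 804 (6.95%) higher and 83 (0.718%) lower in the knockout. After a median-of-ratios scaling of the libraries, 473 were higher and 176 lower, so that the share of higher calls moved from 90.6% to 72.9%. Log2 changes below were computed after adding 1 RPKM to every value, so they understate the change of low genes.

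The clearance receptor gene Npr3 (gene identifier 18162, chromosome 15) was higher in the knockout. Its level was 15.6, 12.0 and 12.1 RPKM in knockout replicates 1, 2 and 3 and 6.26, 8.14 and 7.07 RPKM in wildtype replicates 1, 2 and 3. Every knockout library lay above every wildtype library, and knockout replicate 1 stood above the other two. The means were 13.2 ± 2.06 against 7.16 ± 0.943 RPKM (SD, n = 3 per group), a ratio of 1.85. The log2 change was 0.80 (SE 0.12; 95% confidence interval 0.52 to 1.08) with a limma adjusted p of 0.00576. Npr3 passed the threshold in all 14 alternative settings, with adjusted p from 0.00377 to 0.0248.

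Npr1 (gene identifier 18160, chromosome 3), which encodes the cyclase receptor for the atrial and B-type peptides, had the highest level of the 8 genes. It was measured at 13.4, 13.5 and 13.1 RPKM in the knockout and at 15.5, 13.7 and 14.3 RPKM in the wildtype libraries. The knockout libraries all lay below the wildtype ones, by a margin small against the wildtype spread, and the means were 13.4 ± 0.199 and 14.5 ± 0.901 RPKM (SD, n = 3). The log2 change of -0.11 (95% confidence interval -0.28 to 0.06) did not pass, with a limma adjusted p of 0.402. With median-of-ratios scaling it was -0.21, with an interval from -0.37 to -0.06 and an adjusted p of 0.122.

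Npr2 (gene identifier 230103, chromosome 4) encodes the cyclase receptor for the C-type peptide. It stood at 6.98, 6.98 and 7.09 RPKM in the knockout and at 5.70, 5.99 and 5.46 RPKM in the wildtype libraries. The groups did not overlap and the knockout libraries lay close together, with means of 7.01 ± 0.0663 and 5.72 ± 0.265 RPKM (SD, n = 3). The log2 change was 0.26 (95% confidence interval 0.09 to 0.42) and missed the threshold, with a limma adjusted p of 0.0698. With median-of-ratios scaling it was 0.16, with an adjusted p of 0.247.

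**Figure D1:**
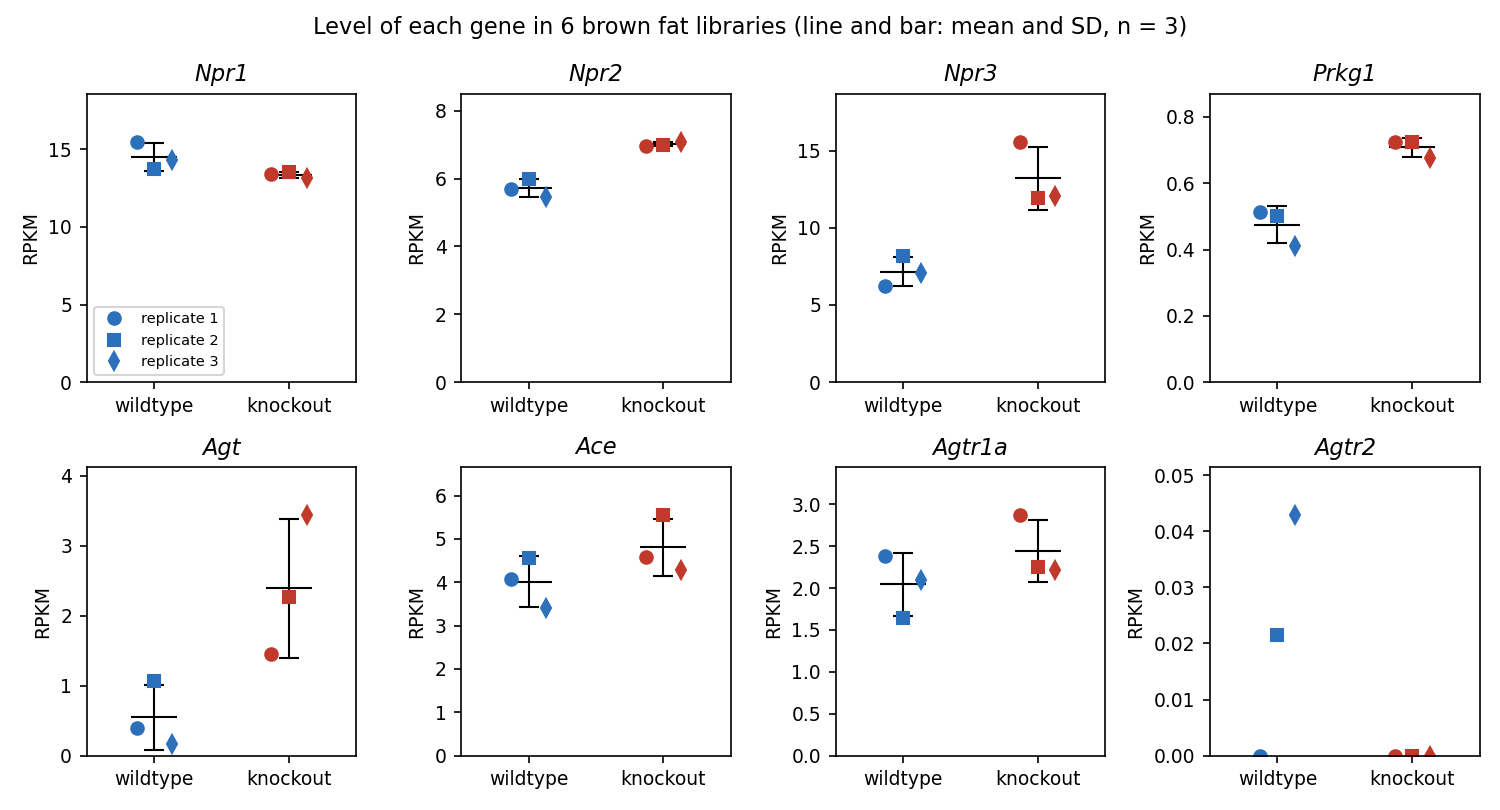
Level in RPKM (vertical axis, from 0) of the 8 genes in each library, wildtype in blue and knockout in red; marker shapes give the replicate number, and lines and bars give the mean and SD of 3 libraries, left out for Agtr2. Npr3, Npr2, Prkg1 and Agt show all knockout libraries above all wildtype libraries, Npr1 shows the reverse order, and Ace and Agtr1a overlap.

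The ratio of Npr3 to Npr1 within a library does not depend on how libraries are scaled. It was 1.16, 0.883 and 0.919 in the knockout and 0.404, 0.593 and 0.495 in the wildtype libraries. The lowest knockout ratio lay above the highest wildtype ratio, and the mean log2 difference was 0.999. The exact two-sided permutation test gave p = 0.1, the smallest value that 3 against 3 libraries allow, so this test cannot reach 0.05 for a single ratio. The share of Npr3 in the summed RPKM of the 3 receptors was 39.2 ± 3.61% in the knockout and 26.1 ± 3.22% in the wildtype (SD, n = 3).

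The ratio of Npr2 to Npr1 was 0.525 ± 0.0127 in the knockout and 0.395 ± 0.0361 in the wildtype (SD, n = 3), again without overlap and with an exact permutation p of 0.1. The summed level of the 2 cyclase receptors was 20.4, 20.5 and 20.2 RPKM in the knockout and 21.2, 19.7 and 19.8 RPKM in the wildtype libraries, with an exact permutation p of 1.0. That overlap depended on the scaling. With median-of-ratios scaling the sum was 19.8, 19.5 and 19.5 against 21.8, 20.8 and 20.5, and the knockout libraries all lay lower, with an exact permutation p of 0.1.

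**Figure D2:**
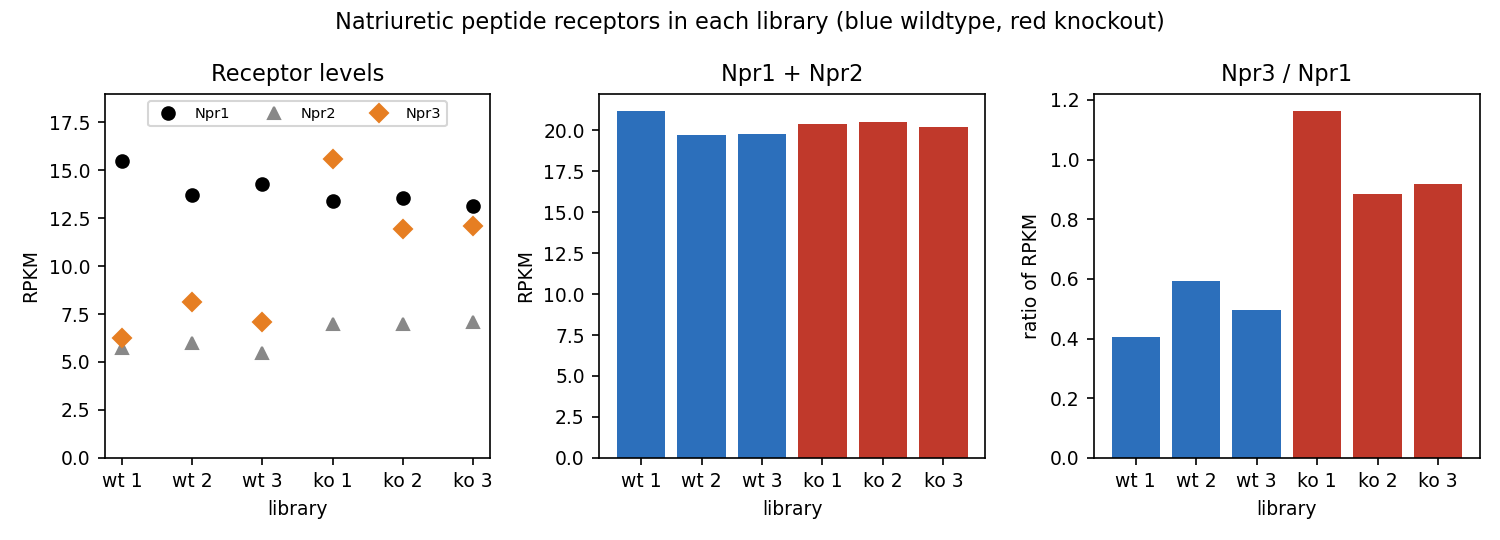
Left, RPKM of Npr1, Npr2 and Npr3 in each library; middle, the sum of Npr1 and Npr2 in RPKM as deposited; right, the ratio of Npr3 to Npr1, with wildtype bars in blue and knockout bars in red. The ratio lies between 0.404 and 0.593 in the wildtype and between 0.883 and 1.16 in the knockout libraries, while the summed cyclase receptors lie between 19.7 and 21.2 RPKM in all 6.

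Prkg1 (gene identifier 19091, chromosome 19), the cyclic GMP-dependent kinase gene, was too low for the test. It was measured at 0.724, 0.725 and 0.675 RPKM in the knockout and at 0.514, 0.50 and 0.410 RPKM in the wildtype libraries, from 19 to 34 estimated reads each. The groups did not overlap, and the exact permutation test gave its smallest possible p of 0.1. Without a filter on low values the log2 change was 0.21, with a limma adjusted p of 0.110. When all 13 transcript rows of Prkg1 were summed, which counts shared reads more than once, it was 0.71 with an adjusted p of 0.0146. With the single row of highest mean the log2 change was 0.39, with a limma adjusted p of 0.143. Prkg1 thus passed only with its rows summed, which also raises its level against the added 1 RPKM.

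Agt (gene identifier 11606, chromosome 8), the angiotensinogen gene, had the largest fold of the 8 genes and a low level. It was measured at 1.46, 2.27 and 3.44 RPKM in the knockout and at 0.399, 1.07 and 0.167 RPKM in the wildtype libraries. These levels correspond to 44, 68 and 117 estimated reads in the knockout and to 12, 33 and 5 in the wildtype. The groups did not overlap, but both spread widely, and wildtype replicate 2 lay nearer to knockout replicate 1 than to the other wildtype libraries. The means were 2.39 ± 0.994 and 0.546 ± 0.470 RPKM (SD, n = 3), a ratio of 4.38, and the log2 change was 1.13 (SE 0.25; 95% confidence interval 0.55 to 1.71) with a limma adjusted p of 0.0324. Agt entered the test only through its knockout mean, since its wildtype mean lay under 1 RPKM.

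Agt lost its call in 5 of 13 alternatives, all with a positive change. Its limma adjusted p was 0.108 without knockout replicate 2, 0.0888 without knockout replicate 3, 0.0989 without wildtype replicate 1, 0.0688 without wildtype replicate 3 and 0.0790 without the filter on low values. With a pseudocount of 0.1 RPKM in place of 1 the log2 change was 2.13, with an adjusted p of 0.0465.

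Agt lies on the same chromosome as the targeted gene Ucp1, at a distance of more than 10 Mb in the RefSeq annotation of GRCm38.p6. Whether its position bears on its level was not tested. Of the genes beside Agt, Cog2, which encodes a Golgi complex subunit, was measured at 9.08 ± 0.734 and 8.68 ± 0.785 RPKM (SD, n = 3), with a limma adjusted p of 0.739. Capn9, a calpain protease gene, stood at 0.0948 ± 0.0142 and 0.0439 ± 0.0152 RPKM. Its knockout libraries all lay above the wildtype ones, but Capn9 was too low for the test.

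The upstream sequence of Agt is shown because this gene had the largest fold and its level can be set beside a defined start site. RefSeq (GRCm38.p6) gives the 250 bases before the start as chr8:124569707-124569956 on the minus strand. A TATA box motif, TATAAA, stands in capitals 25 to 30 bases before the start, and the sequence is written 5′ to 3′.
Agt: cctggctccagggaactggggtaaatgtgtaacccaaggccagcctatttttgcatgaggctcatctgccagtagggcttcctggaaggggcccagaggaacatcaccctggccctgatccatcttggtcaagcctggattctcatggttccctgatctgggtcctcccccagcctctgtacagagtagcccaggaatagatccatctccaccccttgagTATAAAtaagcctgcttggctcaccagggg
TATAAA on either strand is found in 12.4% of the 32851 RefSeq windows of this length. The letters of CCAAT (33.8% of windows), GGGCGG (32.7%), TGACGTCA (1.55%), CACGTG (6.02%), AGGTCA (14.0%) and TGATGNAA (3.45%) were searched on both strands and are not in the Agt window. A match describes letters and not a binding site. Of the 8 genes, 7 matched a promoter window, and Agtr1a did not.

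Ace (gene identifier 11421, chromosome 11), the converting enzyme gene, did not pass the test. Its levels were 4.59, 5.55 and 4.29 RPKM in the knockout and 4.07, 4.57 and 3.40 RPKM in the wildtype libraries, and the groups overlapped. The log2 change was 0.21 (95% confidence interval -0.05 to 0.48) with a limma adjusted p of 0.307. The row that represents Ace is the shorter of its 2 RefSeq transcripts. The longer transcript, which encodes the somatic enzyme, was listed at 4.10, 5.27 and 3.90 against 3.64, 4.16 and 3.26 RPKM, also with overlapping groups.

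Agtr1a (gene identifier 11607, chromosome 13), the main type 1 angiotensin receptor gene of mice, did not pass either. It stood at 2.87, 2.25 and 2.21 RPKM in the knockout and at 2.39, 1.64 and 2.10 RPKM in the wildtype libraries. The groups overlapped, and the log2 change was 0.18 (95% confidence interval -0.10 to 0.46) with a limma adjusted p of 0.414. Its near-identical paralog Agtr1b was listed at 0 in 4 libraries and at 0.0285 and 0.0287 RPKM in wildtype replicates 1 and 3. How reads shared by both genes were counted is not stated, so the values of this pair are uncertain.

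Agtr2 (gene identifier 11609, chromosome X), the type 2 receptor gene, was listed at 0 in the 3 knockout libraries and in wildtype replicate 1. Wildtype replicates 2 and 3 had 0.0215 and 0.0429 RPKM, or 1 and 2 estimated reads. At this depth no difference in Agtr2 was detectable, and no fold is given.

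**Figure D3:**
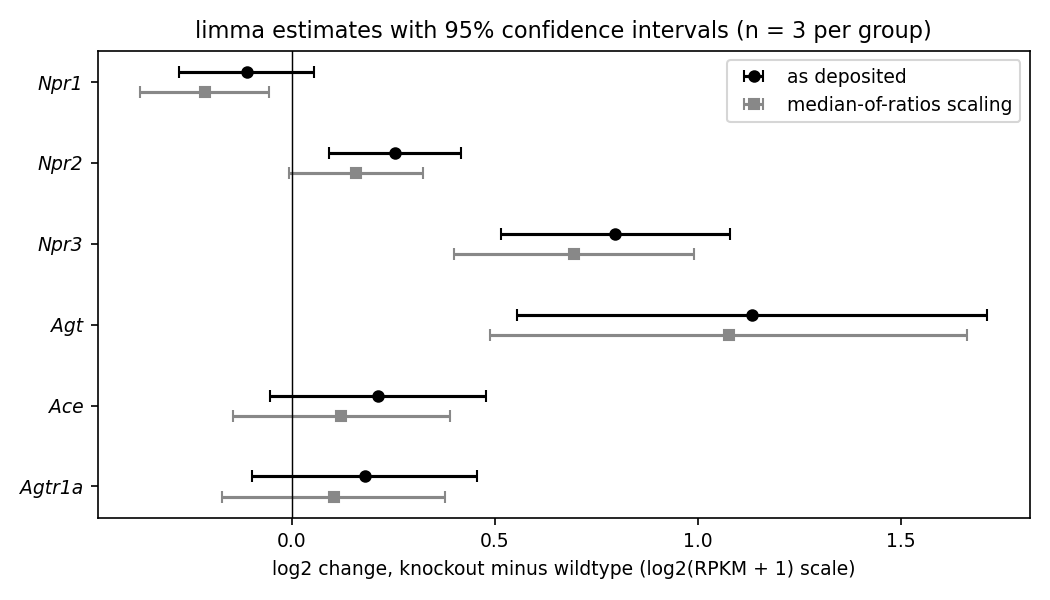
Log2 change, knockout minus wildtype, on the log2(RPKM + 1) scale for the 6 tested genes, with limma 95% confidence intervals; black circles use the values as deposited and grey squares the median-of-ratios scaling. Npr3 (0.80 and 0.70) and Agt (1.13 and 1.08) lie to the right of 0 under both scalings, and the intervals of Ace and Agtr1a include 0 under both.

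Of the 6 tested genes, 2 were called higher (Npr3 and Agt), 0 lower and 4 were not called, where 7.67% of all tested genes were called and 6.95% were called higher. Agt is among the 6 only because of its higher group, so the count includes a gene that the difference itself admitted. The groups did not overlap for 4 of the 6, against 29.3% of all tested genes. They did not overlap with the knockout higher for 3 of the 6, against 24.2% of all tested genes. Most genes without overlap were higher over the whole table too, at 2802 of 3393. The median log2 change of the 6 was 0.23, beside 0.08 for all tested genes. The genes were proposed with results of these data known, so these counts describe them and are no evidence for the group as a whole.

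In the wildtype the 8 genes formed an order by level per length: Npr1, then Npr3, Npr2, Ace, Agtr1a, Agt and Prkg1, with Agtr2 last. Neighbours were separate in the wildtype libraries except Agt and Prkg1, whose values overlapped. In the knockout, Npr1 and Npr3 overlapped, as did Agt and Agtr1a. Among the 20527 genes with a value above 0, Npr1 had a higher mean than 84.6%, Npr3 than 80.0%, Npr2 than 71.8% and Ace than 65.3%. Agtr1a and Agt lay near the middle, at 55.0% and 49.6%, Prkg1 at 39.9% and Agtr2 at 7.01%.

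The table lists several transcript rows for every gene, which share reads and are not replicates. All 7 rows of Npr3 and all 3 rows of Agt had every knockout library above every wildtype library. The same held for 9 of the 11 Npr2 rows and 10 of the 13 Prkg1 rows. The log2 ratio of group means, with 0.1 RPKM added, ran from 0.78 to 1.39 over the Npr3 rows and from 1.94 to 1.95 over the Agt rows. Of the 6 Npr1 rows, only the RefSeq row that represents the gene had all knockout libraries below all wildtype ones, and the ratios ran from -0.12 to 0.00. None of the 8 Ace rows and 3 Agtr1a rows separated the groups, although all of them had a higher mean in the knockout.

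**Figure D4:**
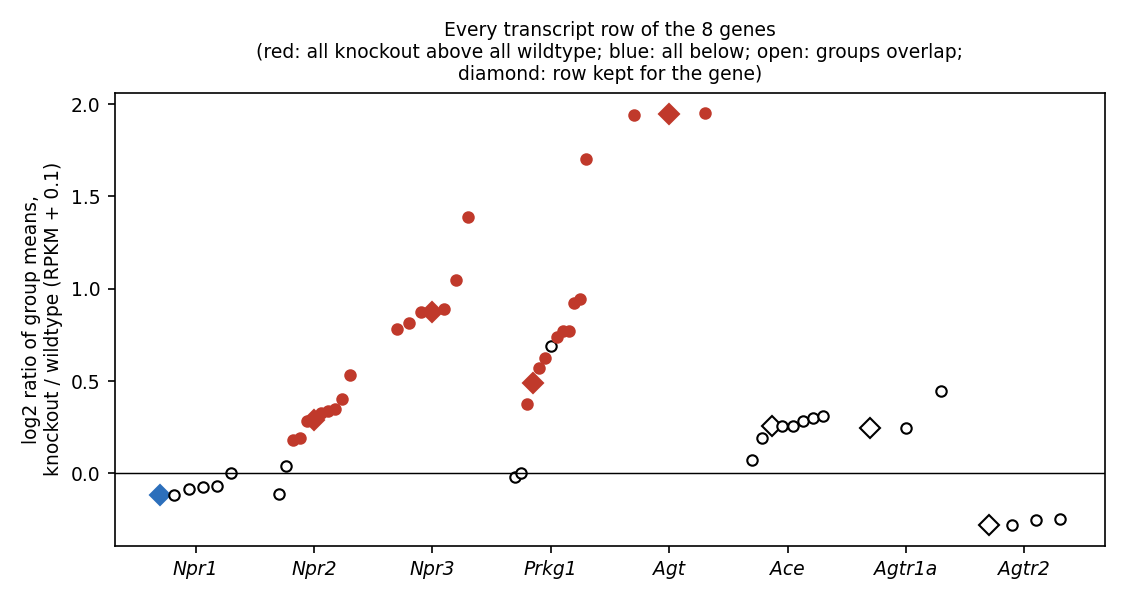
Log2 ratio of knockout to wildtype mean RPKM (0.1 added) for each transcript row of the 8 genes; red points have all knockout libraries above all wildtype ones, blue below, open points overlap, and diamonds are the rows that represent the genes. The rows of Npr3 (0.78 to 1.39) and Agt (1.94 to 1.95) are all red, and the Npr1 diamond is the only blue point.

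An antisense RNA gene, Gm5144, lies over the first exon of Npr3. It was measured at 4.05, 3.94 and 3.67 RPKM in the knockout and 2.27, 4.48 and 1.95 RPKM in the wildtype libraries, with overlapping groups and a limma adjusted p of 0.304. Spag8, at the 3′ end of Npr2, stood at 0.255 ± 0.0555 and 0.312 ± 0.200 RPKM (SD, n = 3). The use of strand is not stated, so reads in the shared stretches cannot be assigned, and the values of Npr3 and Npr2 are uncertain to that extent.

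The other genes of natriuretic and cyclic GMP signalling were read from a list of 22 symbols, of which 13 were tested and 9 lay under the limit. Of the 13, 0 were called in either direction, where 7.67% of all tested genes were called. With 13 genes, 0 called cannot be told apart from that share. At an unadjusted limma p under 0.05, 1 of the 13 would have been counted, beside 2719 of the 11562 genes tested, and with median-of-ratios scaling 0 were called as well. The ligand genes Nppb and Nppc were listed at 0 in all 6 libraries, where an exact 0 can be a failed estimate. Nppa, the atrial peptide gene, stood at 0.377, 0.0764 and 0 RPKM in the knockout and at 0.222, 0.149 and 0.0742 RPKM in the wildtype. Corin, which encodes the protease that activates the atrial peptide, was at or near 0. Mme, which encodes the peptide-degrading enzyme neprilysin, was at 41.8 ± 3.02 and 37.3 ± 3.24 RPKM (SD, n = 3), with a limma adjusted p of 0.304.

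The smallest p of the list was that of Pde3a, a phosphodiesterase gene. Its levels were 2.98, 4.05 and 3.55 RPKM in the knockout and 1.70, 1.17 and 3.35 RPKM in the wildtype libraries, with wildtype replicate 3 among the knockout values. The log2 change was 0.61 with a limma adjusted p of 0.148. Pde3a was not called in 12 of 13 alternatives, with adjusted p up to 0.359. It passed only without wildtype replicate 3, with a log2 change of 0.90 and an adjusted p of 0.00792. Pde3b, the phosphodiesterase gene through which insulin restrains lipolysis, was at 63.1, 69.9 and 69.0 RPKM in the knockout and at 74.9, 77.3 and 71.2 RPKM in the wildtype libraries. The groups did not overlap, and the log2 change of -0.14 had a limma adjusted p of 0.280.

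The renin-angiotensin list named 25 symbols, of which 24 were in the table, 14 were tested, 5 were called higher, 0 lower and 9 were not called, where 6.95% of all tested genes were called higher. With median-of-ratios scaling 3 of them were called higher, beside 473 of 11549 genes. At an unadjusted limma p under 0.05, 9 of the 14 would have been counted, beside 2719 of the 11562 genes tested. The median log2 change was 0.29, against 0.08 for all tested genes. The called genes were Mcpt4, Agtrap, Thop1, Cma1 and Prep, and 10 genes lay under the limit. Mcpt4 and Cma1 are among the 14 only because of their higher group. The counts and the median thus include genes that the difference itself admitted. Ren1, the renin gene, was listed at 0 in all 6 libraries, as were Tmem27, Mrgprd and Ctsg. Since an exact 0 can be a failed estimate, these values do not show that the transcripts were absent.

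Mcpt4 and Cma1 encode mast cell proteases of the chymase family, whose human member can form angiotensin II. Mcpt4 was at 2.21, 3.20 and 1.62 RPKM in the knockout and at 0.556, 0.311 and 0.683 RPKM in the wildtype libraries. Its log2 change was 1.12 with a limma adjusted p of 0.00614, and it passed in all 13 alternatives. Cma1 was at 1.39, 1.88 and 0.670 RPKM against 0.228, 0.286 and 0.457 RPKM, without overlap. Its log2 change was 0.77 with a limma adjusted p of 0.0447, a call lost in 10 of 13 alternatives with adjusted p up to 0.145. Both genes entered the test only through their knockout means, with wildtype means of 0.517 RPKM for Mcpt4 and 0.324 RPKM for Cma1, and without the filter on low values the adjusted p of Cma1 was 0.0862. The summed level of 6 mast cell markers was also higher, at 8.71 to 12.9 RPKM in the knockout and 6.01 to 6.88 RPKM in the wildtype. Of its 4 tested genes 0 passed, and Fcer1a and Ms4a2 were near 0. The groups did not overlap for Cpa3, Tpsb2 and Hdc (limma adjusted p of 0.0802, 0.0504 and 0.125), all higher in the knockout. Such separation was seen in 24.2% of all tested genes, and Cpa3 and Tpsb2 too were tested only through their knockout means. Kit overlapped, at 2.29 ± 0.696 RPKM in the knockout and 2.08 ± 0.956 RPKM in the wildtype (SD, n = 3). The part of mast cells in these values was not tested.

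Agtrap encodes a protein that binds the type 1 receptor and promotes its internalisation. It stood at 5.30, 4.78 and 4.96 RPKM in the knockout and 3.28, 3.59 and 3.45 RPKM in the wildtype libraries, with the groups well apart. The log2 change was 0.44 with a limma adjusted p of 0.0117, and the adjusted p was 0.0618 without knockout replicate 1 and 0.0687 with the transcript row of highest mean. Thop1, the gene of a peptidase that cuts angiotensin I, was at 4.86 ± 0.335 and 3.10 ± 0.433 RPKM (SD, n = 3), with a log2 change of 0.52 and a limma adjusted p of 0.0167. The call of Thop1 was lost without knockout replicate 1 (0.0687), knockout replicate 2 (0.0802) or wildtype replicate 1 (0.0501). Prep, the prolyl endopeptidase gene, was at 8.21 ± 0.364 and 6.53 ± 0.245 RPKM, with a log2 change of 0.29 and a limma adjusted p of 0.0484 that passed the threshold in only 1 of 14 alternatives.

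**Figure D5:**
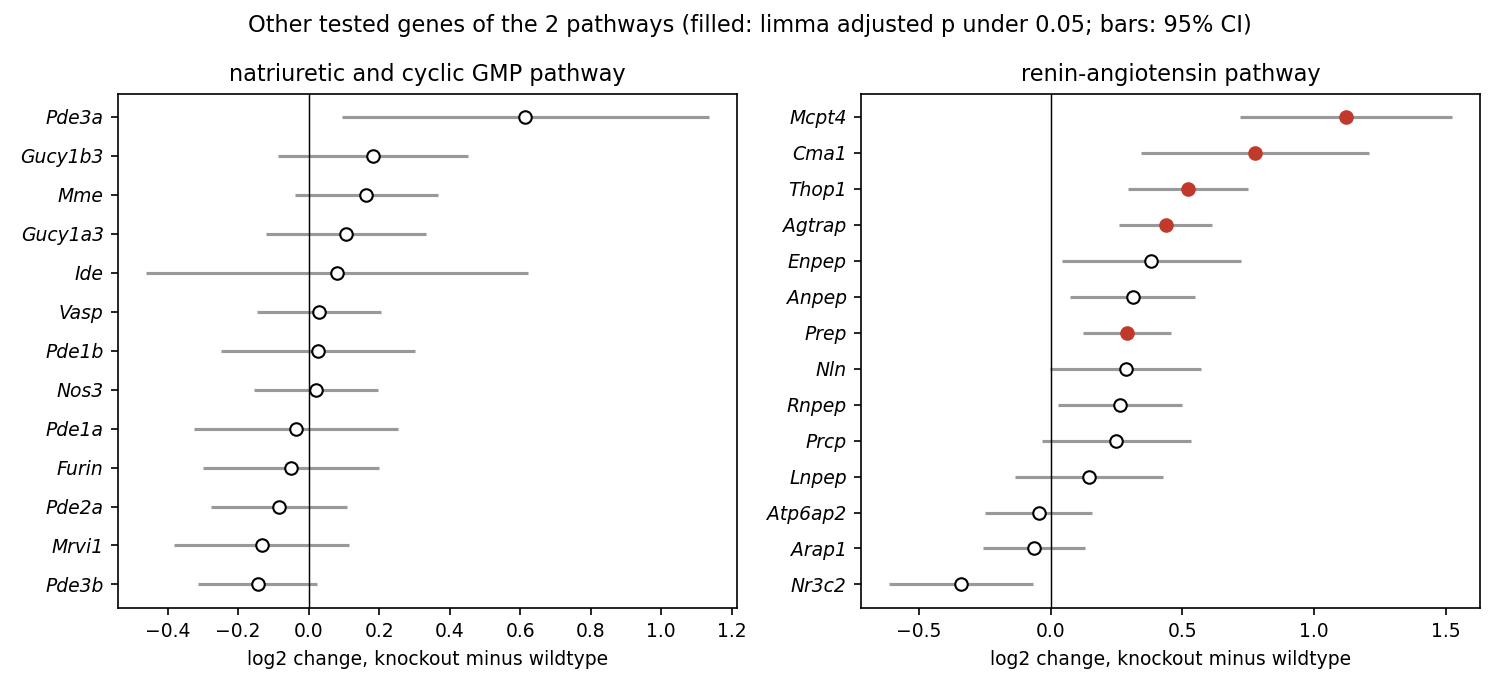
Log2 change, knockout minus wildtype, with limma 95% confidence intervals for the other tested genes of natriuretic and cyclic GMP signalling (left, 13 genes) and of the renin-angiotensin pathway (right, 14 genes); filled red points passed an adjusted p of 0.05. No gene passed on the left, and Mcpt4, Cma1, Thop1, Agtrap and Prep passed on the right. Of all tested genes, 7.67% passed.

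Among the renin-angiotensin genes that did not pass, Enpep, which encodes the aminopeptidase that cuts angiotensin II, was at 6.58 ± 1.67 and 4.75 ± 0.539 RPKM (SD, n = 3), with a limma adjusted p of 0.166. Nr3c2, the mineralocorticoid receptor gene, was at 1.76 ± 0.293 and 2.49 ± 0.397 RPKM, with a log2 change of -0.34 and a limma adjusted p of 0.129. The groups of both genes did not overlap. Atp6ap2, the prorenin receptor gene, overlapped at 10.8 ± 0.388 and 11.2 ± 1.25 RPKM.

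In bulk tissue, fewer cells of a type and less RNA per cell cannot be told apart. The summed level of 12 skeletal muscle markers was 1298 to 1492 RPKM in the knockout and 30.1 to 204 RPKM in the wildtype, with all 12 called higher and wildtype replicate 3 lowest. In that library Npr2, Prkg1, Agt and Ace were also at their lowest, while Npr3 at 7.07 RPKM lay between the other wildtype libraries. Among the knockout libraries, replicate 3 had the lowest muscle sum. There Agt (3.44 RPKM) and Npr2 (7.09 RPKM) were at their highest, and Prkg1 (0.675 RPKM) and Ace (4.29 RPKM) at their lowest for the knockout. Vascular smooth muscle markers summed to 34.7 to 39.6 against 37.1 to 56.1 RPKM, pericyte markers to 94.9 to 103 against 101 to 108, and endothelial markers to 199 to 221 against 193 to 216, with 0 genes called in each list. Fibroblast markers summed to 249 to 290 against 197 to 259 RPKM (1 of 8 called higher), macrophage markers to 61.2 to 82.6 against 38.3 to 59.4 (0 of 8 called) and nerve markers to 46.2 to 50.7 against 36.0 to 49.9 (0 of 3 tested). General adipocyte markers summed to 10012 to 11004 against 9202 to 10661 RPKM with 0 of 6 called, and of 9 brown adipocyte markers Elovl3 was called higher and Ucp1 and Prdm16 lower. With median-of-ratios scaling, 0 fibroblast and 0 brown adipocyte markers were called higher, and 2 brown adipocyte markers were called lower. None of these lists was at 0 as a whole, and the part of cell makeup in the values of the 8 genes was not tested.

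By Pearson correlation of log2(RPKM + 1) over the 6 libraries, the genes most like Agt among 10406 were N4bp2l1 (r = 0.996), Hvcn1 (0.996) and Fam174a (0.995). N4bp2l1 was at 15.1, 17.9 and 20.3 RPKM in the knockout and 10.1, 12.9 and 9.29 RPKM in the wildtype libraries, the same order of libraries as Agt. The genes most like Npr1 were Oaz1 (0.983), Ralgds (0.982) and Hagh (0.972). These values describe 6 libraries that also share their genotype groups.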

How the data were processed

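Per the labels' protocols, libraries were prepared from total RNA with an Illumina TruSeq RNA kit, and CASAVA and bcl2fastq were used, per the submitters' processing notes. Aligner, genome build, annotation and use of strand: not given in the sources used here. RPKM values for 168326 transcript rows in each of 6 libraries were deposited by the authors, with decimal commas and column names that give no unit. The description of the series gives the unit as RPKM. Multiplied by GENCODE transcript length, 96.3% to 96.4% of 6063 to 6542 low values per library fell within 0.1 reads of a whole multiple of 1 step. Such steps cannot tell RPKM from other units scaled to length and depth. The step, searched within a preset range, also gave the estimated depth. The number of deposited sample columns not used is 0. Exact 0 values can be failed estimates, since genes that every cell uses (Gapdh, Ppia) are listed at 0.

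Rows with no gene identifier (23170, 13.8%) were left out, and each of the 29072 genes kept 1 row, from RefSeq in 22466 of them. Genes whose mean reached 1 RPKM in a group were tested on log2(RPKM + 1) with limma 3.58.1 in R 4.3.3, using an intensity trend and a genotype term alone. Two-sided p-values were adjusted over the 11562 tested genes (Benjamini-Hochberg) and compared with 0.05, and the fit was tested on simulated data. Log2 Pearson correlations across genes were 0.992 to 0.994 within the knockout, 0.984 to 0.990 within the wildtype and 0.969 to 0.980 between groups. Alternatives changed the scaling, pseudocount, filter, row per gene, model and replicates.

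The members and lists were chosen with earlier results of these data known. The text names all 8 members, the called genes of both pathway lists, ligands, renin and converting enzymes, and the 3 genes most like the member with the largest change and the one with the highest level. Gm5144, Spag8, Cog2, Capn9, Mme, Corin, Pde3b, Enpep, Nr3c2, Atp6ap2, Cpa3, Tpsb2, Hdc and Kit were named after their values were seen. Intervals cover the spread between libraries, and estimated reads, computed with the length of the paired GENCODE transcript, are approximate. A gene of the renin-angiotensin list is not reported here.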

Additional observations from a re-analysis of the deposited data

How the results depend on the processing

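The number of genes called was 887. It was 454 with a filter of 5 RPKM, where fewer genes are tested (6950), and 455 to 849 when 1 library was left out, with fewer samples in the fit; it was 455 without knockout replicate 2 and 474 without knockout replicate 1. Of the 8 members, 2 were called. The number was 1 without a filter, where Agt was lost, 1 with the filter of 5 RPKM, which leaves 3 members, and between 1 and 2 when 1 library was left out. It was 3 when all rows of a gene were summed. Npr3 kept its call in all 14 alternatives, with log2 changes of 0.68 to 0.88. Agt kept its direction in 13, with 0.92 to 2.13, and its call in 8. Npr1, Npr2, Ace and Agtr1a kept their directions and were not called in any alternative. Same-numbered libraries deviated together weakly or not at all (correlations of 0.0919, 0.0384 and -0.0184). With 3 libraries per group these correlations cannot exclude that the numbers pair the samples. With the replicate block 775 genes were called (688 higher, 87 lower), and 2 members. Depth limits Agtr2, Prkg1 and Agt, which rest on at most 2, 34 and 117 estimated reads.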
